A study of Mus musculus with 2 samples.

Results

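The mitosis and spindle genes are 48 named mouse genes whose products carry a cell from entry into mitosis to the separation of its daughters. They were taken by symbol from both gene tables, and all 48 were found among 21461 nuclear protein-coding genes. The values came from total RNA sequencing of megakaryocyte-erythroid progenitors (MEP), primary bone marrow cells from male mice of strain C57BL/6J, 5 to 6 weeks old. The study held 1 group of 2 libraries and no other condition, and each library was prepared by the ScriptSeq method from 100 ng of rRNA-depleted RNA. The labelled size range was 200 to 1000 in replicate 1 and 215 to 1000 in replicate 2, with no unit stated. The labels name the libraries biological replicates 1 and 2. Both carry 1 donor entry, however, with different biosample entries, so separate mice are not stated. What part of the spread between the libraries is technical cannot be told from the labels and was not tested.

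Cyclin-dependent kinase 1 bound to A and B cyclins drives cells into mitosis, where condensins compact the chromosomes, kinetochores attach them to spindle microtubules, and the spindle checkpoint holds back anaphase until all are attached. The anaphase-promoting complex with CDC20 then marks cyclin B and securin for destruction, separase opens the cohesin rings, and the spindle midzone directs cytokinesis. Many of these genes are transcribed late in the cell cycle by the MuvB complex with B-MYB and FOXM1, which in human and mouse cells acts through a promoter element named the cell cycle genes homology region (CHR), often next to CCAAT boxes bound by NF-Y. Progenitors of the erythroid and megakaryocyte lineages divide in the marrow, and maturing megakaryocytes become polyploid by entering mitosis without completing cytokinesis. In RNA from a bulk sample, fewer dividing cells and less RNA per dividing cell cannot be told apart.

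The promoter windows shown first carry the letters that most of these genes share, on the strand of the gene and 5′ to 3′, from RefSeq promoters of build GRCm38.p6. Capitals mark the CHR letters (TTTGAA or TTCGAA on either strand, so that TTCAAA also counts) and the NF-Y box (CCAAT, or ATTGG on the other strand). Position -1 is the base before the RefSeq start and position 1 the first transcribed base. These 6 genes have CHR letters before the start, and are shown from -100 to -1, except Ube2c, which is shown from -110 to -11.
Cdk1: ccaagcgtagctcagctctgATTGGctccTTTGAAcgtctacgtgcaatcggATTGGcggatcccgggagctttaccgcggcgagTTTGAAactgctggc
Cdc20: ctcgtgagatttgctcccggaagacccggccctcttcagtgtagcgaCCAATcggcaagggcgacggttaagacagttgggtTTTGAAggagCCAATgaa
Ube2c: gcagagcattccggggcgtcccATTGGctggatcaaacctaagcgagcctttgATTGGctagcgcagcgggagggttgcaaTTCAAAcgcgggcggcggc
Espl1: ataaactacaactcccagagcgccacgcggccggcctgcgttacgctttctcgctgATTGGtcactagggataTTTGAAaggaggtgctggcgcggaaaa
Ncapg: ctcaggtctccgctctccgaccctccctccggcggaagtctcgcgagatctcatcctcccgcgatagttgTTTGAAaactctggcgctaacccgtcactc
Kif11: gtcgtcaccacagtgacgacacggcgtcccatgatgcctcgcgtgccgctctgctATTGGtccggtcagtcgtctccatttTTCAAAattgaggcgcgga
The windows lie at chr10:69352913-69353012 (minus strand), chr4:118437344-118437443 (minus), chr2:164769819-164769918 (plus), chr15:102296193-102296292 (plus), chr5:45669825-45669924 (plus) and chr19:37376282-37376381 (plus). Cdk1 has TTTGAA at -71 to -66 and again at -15 to -10, with ATTGG at -80 and -48. In Cdc20 the CHR letters at -18 to -13 lie between CCAAT copies that start at -53 and -8. Ube2c and Kif11 carry the letters on the opposite strand, at -29 to -24 in Ube2c and at -19 to -14 in Kif11.

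Other genes have the letters just past the start, shown in windows of 30 bases, and Ccnb1 is shown because it is one of the genes in which no CHR letters were found.
Plk1: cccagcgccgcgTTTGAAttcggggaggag
Aurka: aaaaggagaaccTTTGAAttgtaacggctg
Ccnb2: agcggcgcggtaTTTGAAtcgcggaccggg
Cenpf: ggcggcgggcagTTTGAAtcgctcgtgctg
Ccnb1: tgccacgaactggCCAATgaggagcgagcg
These windows lie at chr7:122159453-122159482 (plus), chr2:172370521-172370550 (minus), chr9:70421533-70421562 (minus), chr1:189688067-189688096 (minus) and chr13:100786537-100786566 (minus). The letters begin at position 31 in Plk1, 33 in Aurka, 5 in Ccnb2 and 3 in Cenpf. In Ccnb1 the capitals are the NF-Y box at -67 to -63, and another begins at -99. RefSeq and GENCODE starts can differ, so part of a window can lie inside the GENCODE gene.

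The promoter table, which spans 250 bases before to 50 after each start, held 43 promoters of 40 of the genes. It had no entry for Aurkb, Ccna2, Cdc25c, Incenp, Kif20a, Smc4, Spc24 and Tpx2. CHR letters were present in 31 of 40 genes (77.5%), against 20.2% of 17492 protein-coding genes in the table. The share was 17% among the 6804 of these coding genes that reached a TPM of 1 in both libraries, where TPM is a transcript level per length, scaled over all rows of a table. Among 33 DNA replication genes the CHR letters were present in 21.2%, and among 83 other mitosis genes in 44.6%. Between 100 bases before and 50 after the start, the CHR letters were present in 72.5% of the 40 genes and in 8.73% of all coding genes. TTTGAA alone was present in 72.5% of the 40 genes and in 18.5% of all. Within 40 bases of the start, a window chosen after the positions were seen, the CHR letters were present in 26 genes (65%), against 4.13% of all coding genes.

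The NF-Y box was also present in 31 of 40 genes (77.5%), against 42.3% of all coding genes. At 2 or more places it was present in 50% of the 40 genes and in 14.6% of all. Both kinds of letters stood together in 70% of the 40 genes, in 15.2% of the DNA replication genes, in 26.5% of the other mitosis genes and in 8.22% of all coding genes. Top2a held 6 NF-Y boxes and 4 places with CHR letters, Ube2c also held 6 NF-Y boxes, of which a pair overlap, and Hmmr held 5. No CHR letters were found in Birc5, Ccnb1, Cenpe, Cks2, Mad2l1, Ncaph, Nuf2, Nusap1 and Pttg1, which says only that these letters are not in these windows. The 31 genes with CHR letters had a median level of 17.4 TPM and the 9 genes without them 27.8 TPM. The median GC content of the promoters was 59.0% for the 43 promoters and 56.3% for all coding promoters. These are shares of sequence windows, with no measurement of binding.

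**Figure D1:**
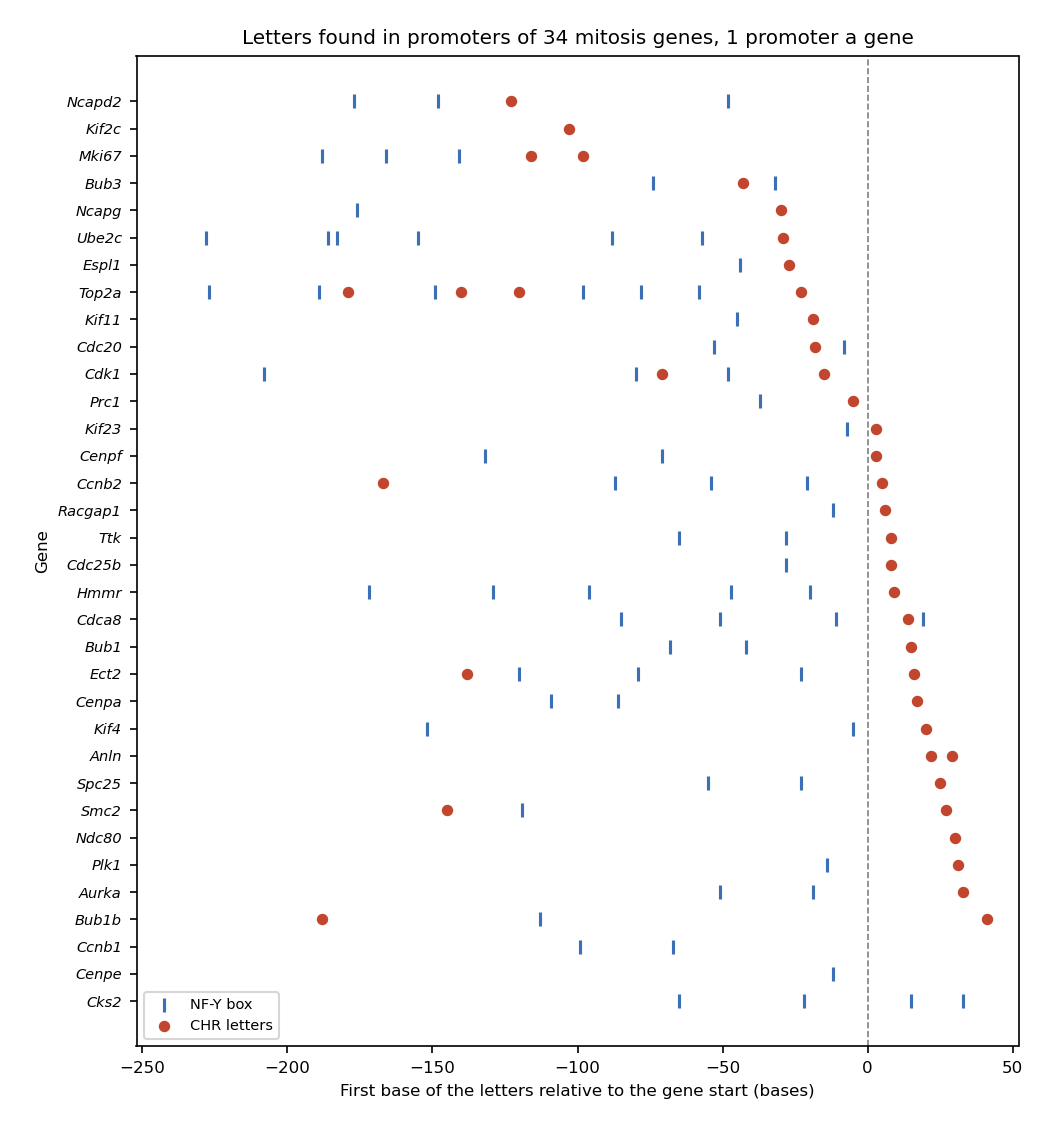
Position of the CHR letters (red points) and NF-Y boxes (blue ticks) along the promoter, in bases from the RefSeq start (dashed line), for the 34 genes that have either; 1 promoter a gene is drawn, and the 6 genes with neither (Birc5, Mad2l1, Ncaph, Nuf2, Nusap1, Pttg1) are not drawn. In most genes a red point lies close to the start, with most blue ticks on its upstream side.

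**Figure D2:**
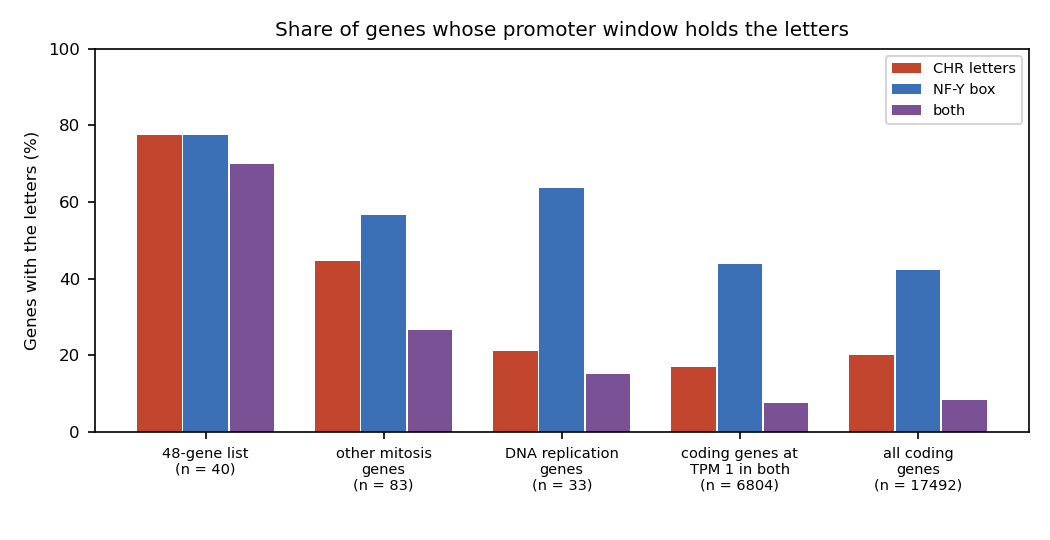
Share of genes (percent, vertical axis) whose promoter window holds CHR letters (red), the NF-Y box (blue) or both (purple), for the mitosis and spindle list, other mitosis genes, DNA replication genes, coding genes at a TPM of 1 in both libraries, and all coding genes, with the number of genes under each set of bars. The share with both is 70% in the list and 8.22% in all coding genes.

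All 48 genes were detected at a TPM of 1 or more in each library, against 39.4% of the 21461 nuclear protein-coding genes. A TPM of 10 in both was reached by 35 of 48, against 14.7% of all. The median over the genes was 17.3 TPM in replicate 1 and 15.9 TPM in replicate 2, and 16.8 TPM for the mean of both. The 8452 coding genes at a TPM of 1 in both had a median of 8.12 TPM. Of the 48 genes, 43 lay in the upper 50% of those expressed genes and 8 in the top 10%. Expected counts, the estimated reads or fragments per gene, were between 331 and 92300 per gene and library, with the fewest for Cdc25b and the most for Mki67. Of 47 neighbours in the order of levels, 39 had overlapping ranges over the 2 libraries. The neighbours whose ranges did not overlap were Smc4 above Top2a, Top2a above Cks2, Mki67 above Smc2, Ncapd2 above Ccna2, Cdk1 above Birc5, Mad2l1 above Cenpa, Kif2c above Kif23 and Kif23 above Cdc25b.

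**Figure D3:**
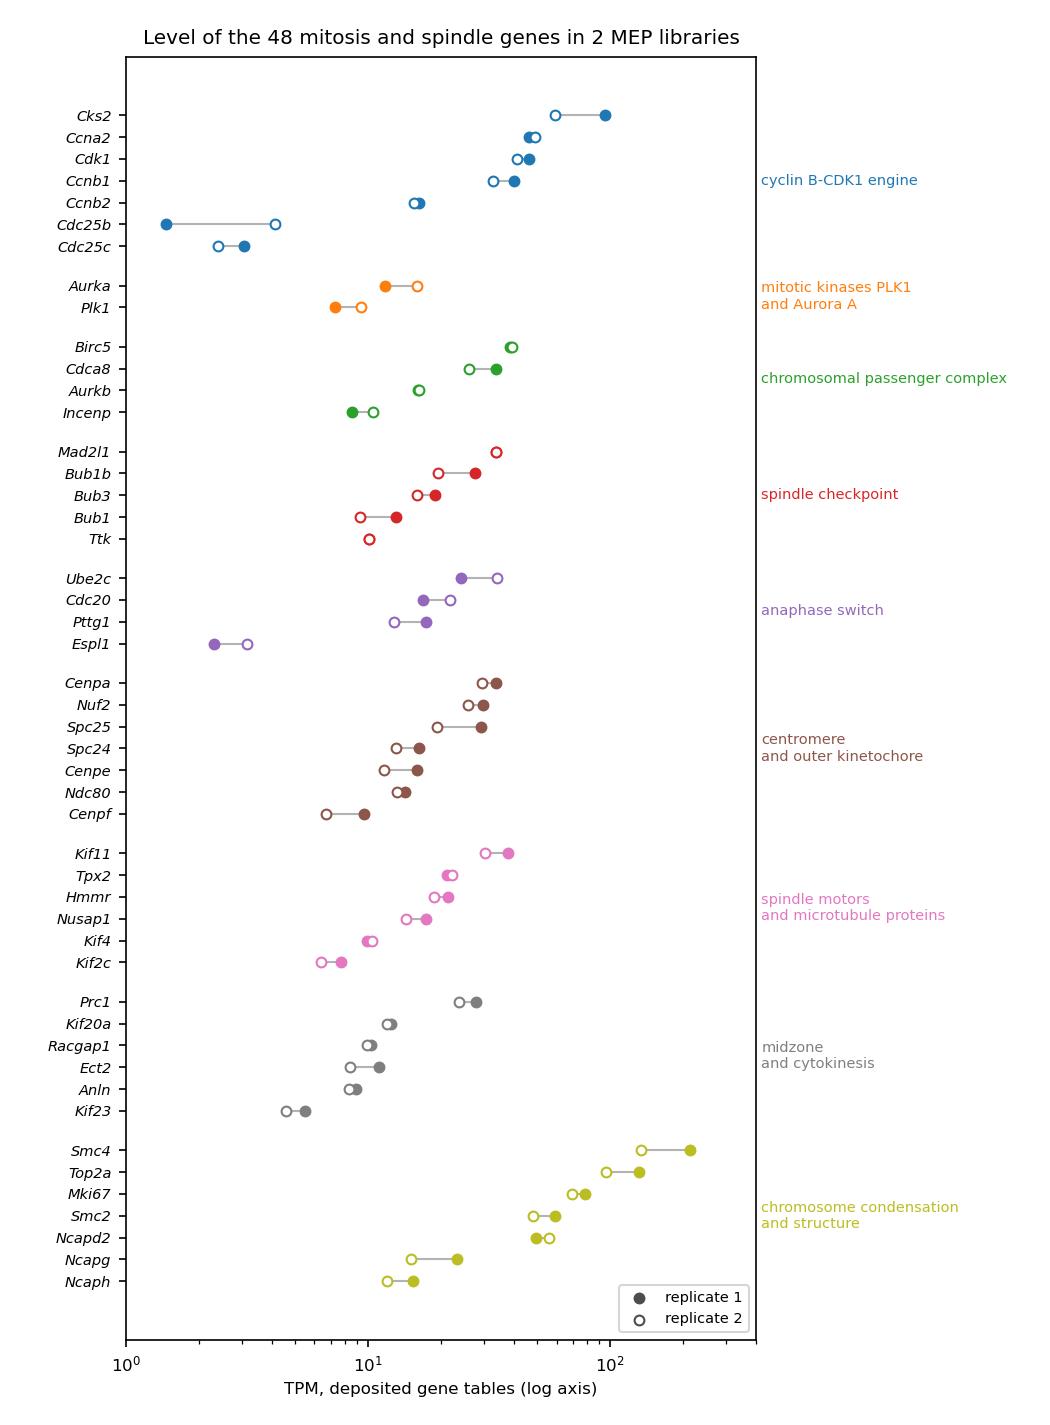
Level of each of the 48 genes (TPM, log axis) in replicate 1 (filled points) and replicate 2 (open points), grouped by role and ordered by mean level within a role. Smc4, Top2a, Cks2 and Mki67 are the highest, Cdc25b, Cdc25c and Espl1 the lowest, and on this log axis the points of Cdc25b lie farthest apart.

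The replicates held 39919884 (replicate 1) and 48043010 (replicate 2) expected counts in all, of which the 48 genes took 0.917% in replicate 1 and 0.943% in replicate 2. Of 16 erythroid marker genes, 14 were at a TPM of 1 or more in each library, led by the carbonic anhydrase gene Car1 at 723 and 708 TPM. Of 12 megakaryocyte markers, 5 were at that level. In replicates 1 and 2 the platelet factor 4 gene Pf4 had 23.5 and 8.71 TPM, the thrombin receptor gene F2r 22.8 and 9.09 TPM, the integrin gene Itga2b 19.6 and 5.70 TPM, the pleckstrin gene Plek 17.4 and 5.88 TPM, and the von Willebrand factor gene Vwf 1.44 and 2.01 TPM. The T and B cell markers Cd3e, Cd4, Cd8a and Ms4a1, the stem cell marker Ly6a and the mast cell proteases Mcpt4 and Mcpt8 had 0 counts in both libraries, which allows up to 3 counts each, for counting error only.

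The cyclin B-CDK1 engine starts mitosis, and its median was 36.3 TPM over 7 genes. Cdk1 (ENSMUSG00000019942.8, chromosome 10, 69335146 to 69352938, mm10), the kinase itself, had 46.0 TPM in replicate 1 and 41.0 TPM in replicate 2. Ccna2, the cyclin A of dividing body cells, had 46.0 and 48.7 TPM in the same order of libraries, which holds for the pairs of levels that follow. By mean level Ccna2 lay above 91.0% and Cdk1 above 90.1% of the expressed coding genes. Ccnb1, the main mitotic cyclin, had 39.9 and 32.7 TPM. Its relative Ccnb2 had 16.2 and 15.5 TPM, so that Ccnb1 was above Ccnb2 in both libraries. Cks2, a small CDK-binding subunit, was the highest of the 7 at 95.0 and 59.4 TPM. The phosphatases that activate CDK1 stood at the other end. Cdc25c had 3.07 and 2.40 TPM and Cdc25b had 1.46 and 4.12 TPM. By the ratio of TPM the libraries differed the most in Cdc25b, but its counts, 369 in replicate 1 and 331 in replicate 2, did not follow the TPM.

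The kinases Plk1 and Aurka act on centrosomes and spindle poles, and both were at moderate levels. Plk1 had 7.28 and 9.37 TPM. Aurka had 11.7 and 15.9 TPM. Both were higher in replicate 2, also relative to the median gene. The chromosomal passenger complex corrects faulty attachments and had a median of 23.0 TPM over 4 genes. Birc5 (survivin), which brings the complex to the centromere, had 38.6 and 39.1 TPM. Cdca8 (borealin), its partner, had 33.7 and 26.2 TPM. The catalytic kinase Aurkb had 16.1 and 16.2 TPM and the scaffold Incenp had 8.59 and 10.5 TPM, so the levels of the 4 subunits were not equal, with Incenp the lowest and Birc5 the highest in both libraries.

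The spindle checkpoint genes had a median of 17.4 TPM over 5 genes. Mad2l1, whose product holds CDC20 inactive, was the highest at 33.9 and 33.8 TPM. Bub1b (BUBR1), part of the same inhibitor, had 27.5 and 19.4 TPM. Bub3, which anchors BUB1 and BUBR1, had 18.9 and 15.9 TPM. The kinase Bub1 had 13.0 and 9.30 TPM. Ttk (MPS1), the kinase that starts the signal, had 10.1 and 10.1 TPM. The order Mad2l1, Bub1b, Bub3 was the same in both libraries, and Ttk and Bub1 changed places. The anaphase switch, on which the checkpoint acts, had a median of 17.2 TPM over 4 genes. Ube2c, the ubiquitin-conjugating enzyme of the anaphase-promoting complex, had 24.2 and 34.1 TPM. Cdc20, its activator, had 16.9 and 21.8 TPM. Pttg1 (securin), the inhibitor of separase, had 17.3 and 12.8 TPM. Espl1 (separase) had 2.32 and 3.15 TPM. Espl1 was the lowest of the group in both libraries, and Pttg1 was higher in replicate 1 while the other 3 were higher in replicate 2.

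The centromere and outer kinetochore genes had a median of 14.6 TPM over 7 genes. Cenpa, the histone H3 variant of centromeres, had 33.7 and 29.4 TPM. The 4 subunits of the NDC80 complex, the microtubule-binding part of the kinetochore, formed a higher and a lower pair. Nuf2 had 29.7 and 25.9 TPM and Spc25 had 29.3 and 19.2 TPM. Ndc80 had 14.2 and 13.2 TPM and Spc24 had 16.2 and 13.1 TPM. The 2 heterodimers of this complex (NDC80 with NUF2, SPC24 with SPC25) each joined a gene of a higher level with one of a lower level. Cenpe, a kinesin of the kinetochore, had 15.9 and 11.6 TPM. Cenpf, a large protein of the kinetochore corona, had 9.59 and 6.73 TPM. Cenpf was the lowest of the 7 genes in both libraries.

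The spindle motors and microtubule proteins had a median of 17.9 TPM over 6 genes. Kif11 (Eg5), the motor that pushes spindle poles apart, led with 37.8 and 30.5 TPM. Tpx2, the activator of Aurora A, had 21.1 and 22.2 TPM. Hmmr, a spindle-pole protein, had 21.4 and 18.6 TPM. Nusap1, which bundles microtubules, had 17.4 and 14.3 TPM. The chromokinesin Kif4 had 9.94 and 10.3 TPM. The microtubule-depolymerizing kinesin Kif2c (MCAK) was the lowest at 7.72 and 6.38 TPM. In the midzone and cytokinesis group, the median was 9.91 TPM over 6 genes, below the medians of the other groups. Prc1, the bundler of antiparallel microtubules, stood above its group at 27.9 and 23.6 TPM. Kif20a (MKLP2), which carries the passenger complex to the midzone, had 12.5 and 11.9 TPM. The centralspindlin subunits differed, since Racgap1 had 10.3 and 9.88 TPM and Kif23 had 5.48 and 4.59 TPM. The RhoA activator Ect2 had 11.1 and 8.45 TPM, and the contractile ring scaffold Anln had 8.94 and 8.32 TPM.

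Chromosome condensation and structure had the highest group median, 53.4 TPM over 7 genes. Smc4 (ENSMUSG00000034349.10, chromosome 3, 69004738 to 69034623, mm10) and Smc2 are the ATPase arms shared by both condensins. Smc4 had 214 and 135 TPM, the highest level of the 48 genes in both libraries (mean 174 ± 56.3, SD, n = 2). Smc2 had 58.9 and 47.98 TPM. Of the condensin I subunits, Ncapd2 had 49.2 and 55.9 TPM, a range that overlaps that of Smc2. Ncapg, a HEAT-repeat subunit, had 23.3 and 15.0 TPM. Ncaph, the kleisin that closes the ring, had 15.3 and 12.0 TPM. Top2a (ENSMUSG00000020914.13, chromosome 11, 98992943 to 99024189, mm10), which untangles sister DNAs, had 131 and 95.7 TPM. Mki67, the chromosome-surface protein used as a proliferation marker, had 78.6 and 69.7 TPM, and also the most counts of the 48 genes.

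For pairs of paralogs and partners the log2 ratio of their TPM was taken library by library, with no test, since a two-sided sign test over 2 libraries cannot give a p below 0.5. Of 25 pairs, 15 had the first gene higher in both libraries and 9 had it lower in both, and in 24 pairs the deposited TPM intervals (level not stated) lay apart in both libraries. The exception was Aurkb over Aurka, at 0.46 in replicate 1 and 0.02 in replicate 2, which over coding transcripts turned to -0.11 and -0.26. The germline or meiotic paralogs were not detected. Ccna1, Ccnb3 and Aurkc had 0 counts, and against a floor of 3 counts per library Ccna2 was at least 1881-fold and 2923-fold higher than Ccna1 in replicates 1 and 2. Ccnb1 was at least 5207-fold and 6288-fold higher than Ccnb3, and Aurkb at least 356-fold and 523-fold higher than Aurkc.

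Among the detected paralogs, Ccnb1 was above Ccnb2 by 1.19 ± 0.15 (log2, mean and SD, n = 2). Cks2 was above Cks1b by 1.04 ± 0.12. Cdc20 was above Fzr1 (CDH1), the activator used after anaphase and in early interphase, by 2.57 ± 0.27. Mad2l1 was above Mad2l2, a gene of DNA repair, by 4.15 ± 0.42. Top2a was above Top2b, the form also used by cells that do not divide, by 0.80 ± 0.04. These gaps were several times the SD between the libraries, which rests on 1 difference per pair and does not cover the choice of transcripts. Over coding transcripts the gap of Top2a over Top2b was 0.56 and 0.53 in replicates 1 and 2. The separase inhibitor Pttg1 was above Espl1 by 2.46 ± 0.62. Bub1b was above Bub1 by 1.07 ± 0.01.

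Other ratios ran the other way. The log2 ratio of Cdc25b over Cdc25a, whose product acts earlier in the cycle, was -2.18 ± 1.04 (mean and SD, n = 2). That of Kif23 over its partner Racgap1 was -1.01 ± 0.14. Ndc80 over its partner Nuf2 was at -1.02 ± 0.07, and Smc2 over Smc4 at -1.68 ± 0.26. In these pairs the first gene was lower in both libraries. The condensin I subunit Ncapd2 was above its condensin II counterpart Ncapd3 by 2.63 ± 0.32 and Ncapg above Ncapg2 by 0.67 ± 0.28, whereas the log2 ratio of Ncaph over Ncaph2 was -0.67 ± 0.06. The direction of the pair Cdc25b and Cdc25c differed between the libraries, at -1.07 in replicate 1 and 0.78 in replicate 2, whereas over coding transcripts Cdc25b was lower in both, at -1.08 and -2.66.

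The levels of 7 of the 48 genes, a share near the background, rested in part on transcripts annotated as retaining an intron. Such transcripts held over 20% of the TPM of Aurkb, Cdc25b, Cdk1, Ect2, Ncapd2, Ncapg and Smc4 by the mean of the libraries, against 12.7% of 8452 expressed coding genes. In Cdk1 they held 61.6% (replicate 1) and 60.8% (replicate 2) of the TPM, yet 24.0% and 25.0% of the counts. A TPM is scaled by length, and the leading Cdk1 transcript, Cdk1-204, has 475 bases. In Smc4 they held 49.1% and 41.4% of the TPM, but 9.80% and 8.48% of the counts. In Ncapd2 they held 51.1% and 43.1% of the TPM, and 13.6% and 12.6% of the counts. Over protein-coding transcripts alone, Top2a led with 103 and 79.1 TPM and Smc4 followed with 97.2 and 63.4 TPM. Cdk1 had 17.7 and 16.1 TPM from coding transcripts, place 22 of the 48 genes. The median of the 48 genes was then 15.3 TPM.

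Some pair ratios changed in size over coding transcripts. Cdk1 over Cdk2 was 2.27 and 1.75 (log2) in replicates 1 and 2 by gene TPM, and 0.89 and 0.40 by coding transcripts. Smc2 over Smc4 was -1.86 and -1.49 by gene TPM, and -0.97 and -0.78 by coding transcripts. Ncapd2 over Ncapd3 was 2.41 and 2.86 by gene TPM, and 1.34 and 1.84 by coding transcripts, and Ncapg over Ncapg2 was 0.87 and 0.47 by gene TPM, and 0.36 and 0.15 by coding transcripts. Ncaph over Ncaph2 was -0.63 and -0.71 by gene TPM, and -0.18 and -0.24 by coding transcripts. Cdc20 over Fzr1 was larger by coding transcripts, at 3.35 and 3.35, than by gene TPM, at 2.38 and 2.76. Cdc25b over Cdc25a was -2.92 and -1.45 by gene TPM, and -2.93 and -4.89 by coding transcripts. Plk1 over Plk4, the kinase of centriole duplication, was -1.61 and -1.33 by gene TPM, but 0.00 and -0.29 by coding transcripts, with the coding share of Plk1 at 100%. The call that Plk1 lay below Plk4 in both libraries held for gene TPM and not for coding transcripts.

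The same transcript led in both libraries in 29 of the 34 genes with 2 or more transcripts (85.3%), against 72.6% of 6363 such expressed coding genes. The other 14 genes have 1 transcript. A coding transcript of Pttg1 with 696 bases held 84.2% of its TPM in replicate 1, and another with 741 bases held 95.2% in replicate 2. Prc1, Smc2, Ect2 and Cdc25b also had different leading transcripts. In Cdc25b, the coding transcript Cdc25b-202 held 99.2% of the TPM in replicate 1, while retained-intron transcripts held 90.8% in replicate 2.

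**Figure D4:**
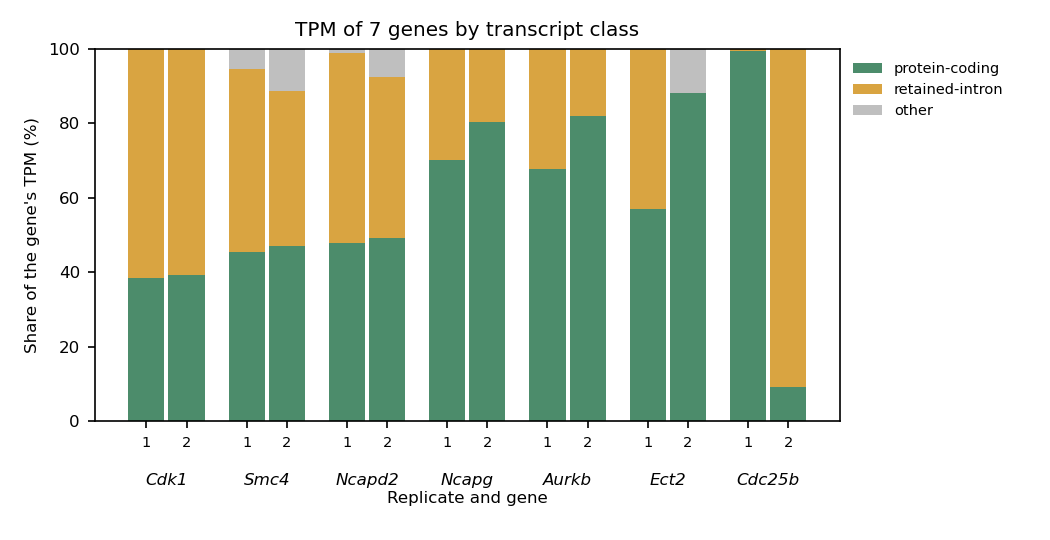
Share of the gene's TPM (percent) in protein-coding (green), retained-intron (yellow) and other (grey) transcripts, for the 7 genes in which retained-intron transcripts held over 20%, with replicate 1 and replicate 2 side by side. Cdk1, Smc4 and Ncapd2 have like shares in both libraries, and Cdc25b has 0.685% retained-intron TPM in replicate 1 and 90.8% in replicate 2.

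Genes that overlap some of the 48 also took counts, and whether strand was used in counting is not stated. The small Cajal body RNA gene Scarna10 lies within Ncapd2 on its strand and had 1115 and 765 TPM. It took 11386 and 11338 counts, beside 8510 and 13549 counts of Ncapd2, so the level of Ncapd2 depends on how such reads were assigned. The snoRNA gene Gm22806, within Cks2 on its strand, had 141 and 381 TPM, with 45 and 153 counts beside 4066 and 3722 counts of Cks2. Detected coding genes on the opposite strand overlap Ccna2 (Exosc9), Cdca8 (9930104L06Rik), Prc1 (Rccd1), Cdc20 (Elovl1), Ncapg (Lcorl), Nusap1 (Oip5), Kif20a (Cdc23) and Kif4 (Pdzd11), and reads of such overlaps may be split uncertainly. The pseudogenes Ccnb1-ps and Ccnb2-ps stayed at or below 0.50 TPM.

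The libraries differed from each other, within the list and over all coding genes. The ratio used is the log2 of (TPM + 1) in replicate 2 over replicate 1, relative to the median over 9033 nuclear protein-coding genes (those averaging 1 TPM or more), which itself was -0.27. On this scale the 48 genes had a median of 0.08 and a range of -0.39 to 1.33, and 31 lay above the median gene, against 50% of all genes compared. Replicate 2 was over 1.5-fold higher in 6 of 48, against 10.7% of genes compared, and over 1.5-fold lower in 0 of 48, against 10.5%. One gene, Cdc25b, passed 2-fold, against 3.41% of genes higher and 2.9% lower. No test was made, since there is 1 group. Without the centring, 13 of the 48 genes were higher and 35 were lower in replicate 2.

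The 6 genes over 1.5-fold higher in replicate 2 were Cdc25b (1.33), Ube2c (0.75), Aurka (0.68), Cdc20 (0.62), Plk1 (0.60) and Espl1 (0.60), all as centred log2 ratios. As a share of the 48 genes this is near the background. Ube2c (ENSMUSG00000001403.9, chromosome 2, 164769898 to 164778822, mm10) had 3402 expected counts in replicate 2 and 1644 in replicate 1. Cdc20 had 4140 in replicate 2 and 2011 in replicate 1. Espl1 had 2709 in replicate 2 and 1359 in replicate 1. In these 3 genes the counts of replicate 2 exceeded those of replicate 1 by more than the library totals did. Cdc25b (ENSMUSG00000027330.12, chromosome 2, 131186949 to 131198497, mm10) did not share this, with 331 counts in replicate 2 and 369 in replicate 1, and its ratio was -0.35 on TMM-scaled counts and -0.57 over coding transcripts. On TMM-scaled counts 6 genes were over 1.5-fold higher, against 10.4% of genes compared, and 0 were lower, against 11.1%, with Incenp (0.61) in the place of Cdc25b. The lowest ratios were those of Cks2 and Smc4, both at -0.39, and of Ncapg at -0.33.

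The ratio moved with the GC content of transcripts, over the list and over all genes. Across the 48 genes Spearman's rho was 0.586 and Pearson's r was 0.657, and across all 9024 genes with a GC value they were 0.305 and 0.257. These describe genes that share 2 libraries and are not independent replicates. The median ratio of a GC decile ran from -0.23 in the lowest to 0.22 in the highest. The 8 genes of the highest GC content in the list (Cdca8, Ncapd2, Cdc25b, Incenp, Ube2c, Cdc20, Plk1, Espl1) had a median ratio of 0.60, while the list as a whole had a median GC content of 46.4%, against 49.5% of all genes compared. Centred within GC deciles, a step added after the data were seen, the median of the list was 0.17 and 36 genes lay above the median gene. Over 1.5-fold were then Cdc25b at 1.19 and Aurka at 0.61, against 8.78% of genes compared, and 0 genes were over 1.5-fold lower, against 9.98%. Ube2c was then at 0.56, Cdc20 at 0.43 and Plk1 and Espl1 at 0.40. The part of GC content in the difference was not tested beyond this.

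**Figure D5:**
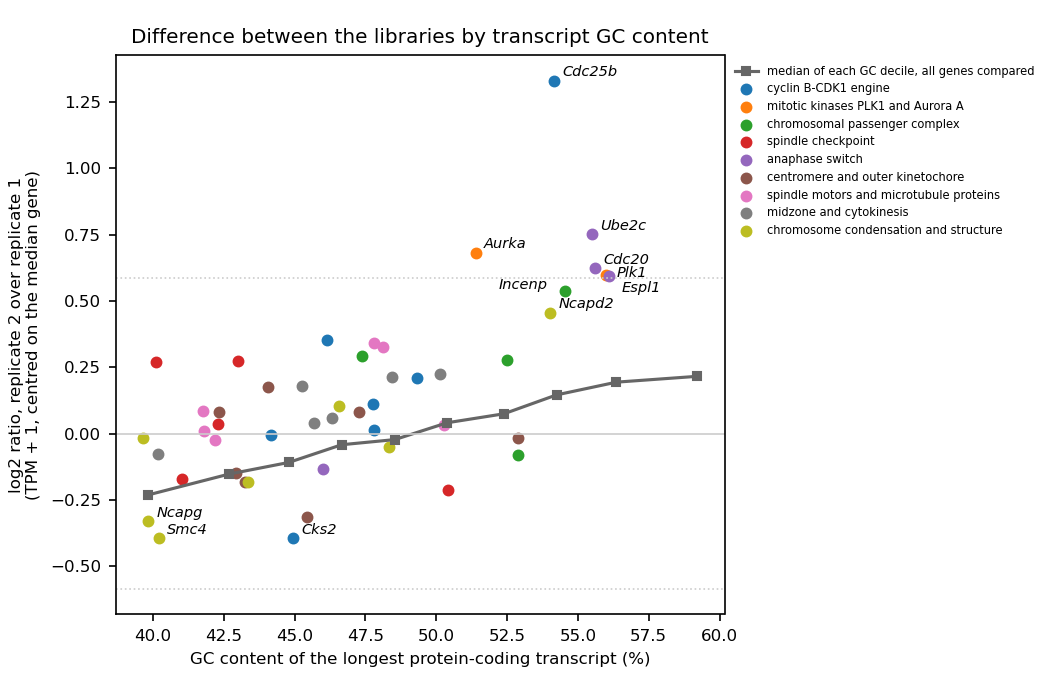
Centred log2 ratio of replicate 2 over replicate 1 (TPM + 1) for each of the 48 genes, coloured by role, against the GC content of the longest protein-coding transcript (percent). The grey line joins the medians of all genes compared in GC deciles, from -0.23 to 0.22, and the dotted lines mark 1.5-fold; Cdc25b, Ube2c, Aurka, Cdc20, Plk1 and Espl1 lie above the upper dotted line.

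Marker genes of blood cell types also differed between the libraries. The summed TPM of the 16 erythroid markers was 1658 in replicate 2 and 1604 in replicate 1. Car1 and Car2 held most of this sum in both libraries. All 14 erythroid markers compared lay above the median gene, and 5 of them were over 1.5-fold higher in replicate 2. Centred within GC deciles, 12 lay above it and 4 were over 1.5-fold higher (background 8.78%). Without that step, 50% of all genes compared lay above the median gene, 10.7% were over 1.5-fold higher and 10.5% over 1.5-fold lower. The globin gene Hbb-bs had 14.5 TPM in replicate 2 and 1.56 TPM in replicate 1, and Hba-a1 had 21.4 TPM in replicate 2 and 5.26 TPM in replicate 1. The 12 megakaryocyte markers summed to 33.6 TPM in replicate 2 and 86.5 TPM in replicate 1. Of the 6 compared, 4 were over 1.5-fold lower in replicate 2, while 2 lay above the median gene. The 10 stem and multipotent markers summed to 47.8 TPM in replicate 2 and 104 TPM in replicate 1. Here too, 4 of the 6 compared were over 1.5-fold lower in replicate 2 and 2 lay above the median gene. Neutrophil and monocyte markers (11 genes) summed to 143 TPM in replicate 2 and 81.7 TPM in replicate 1, with 5 of the 8 compared over 1.5-fold higher and 2 over 1.5-fold lower in replicate 2. S100a8 had 68.2 TPM in replicate 2 and 30.7 TPM in replicate 1, whereas Mpo had 1.64 TPM in replicate 2 and 8.53 TPM in replicate 1. The 10 lymphoid markers found summed to 29.4 TPM in replicate 2 and 8.02 TPM in replicate 1, and 4 of them had 0 counts in both. Gimap4 had 13.25 TPM in replicate 2 and 0.80 TPM in replicate 1, and Gzma had 9.03 and 0 TPM. Nkg7 went the other way, with 5.02 TPM in replicate 2 and 7.01 TPM in replicate 1. The 8 mast cell and basophil markers summed to 8.55 TPM in replicate 2 and 19.1 TPM in replicate 1. The part of these cells in the ratios of the 48 genes was not tested.

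Beside the median of 16.8 TPM of the 48 genes, 94 mitosis genes outside the list had a median of 9.25 TPM, and 92 of them were at 1 TPM or more in each library (background 39.4%). All 14 core subunits of the anaphase-promoting complex reached a TPM of 1, with a median of 17.9 TPM, from Anapc5 at 56.5 and 49.7 TPM to Anapc10 at 3.49 and 2.85 TPM. Its 7 regulators had a median of 9.08 TPM, led by Ube2s, which extends ubiquitin chains after UBE2C, at 59.5 and 61.5 TPM. The 14 inner kinetochore genes had a median of 9.95 TPM and the 14 outer kinetochore partners 8.83 TPM, led by Zwint at 70.8 and 57.1 TPM. Condensin II genes had a median of 11.8 TPM over 3 genes, entry and exit regulators 6.13 TPM over 11, and other spindle and midbody genes 8.88 TPM over 24.

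The MuvB, B-MYB and FOXM1 genes, whose products act on CHR elements, had a median of 6.79 TPM over 7 genes, below that of the 48 genes. Mybl2 (B-MYB) had 6.25 and 7.32 TPM and Foxm1 had 1.56 and 1.53 TPM, while the histone-binding subunit Rbbp4, which is shared with other complexes, had 24.8 and 22.5 TPM. The 48 mitosis and spindle genes had a lower median (16.8 TPM) than 40 DNA replication genes (25.6 TPM), and 35 of 48 were at a TPM of 10 in both libraries, against 35 of 40. The replication genes were led by the sliding clamp gene Pcna at 197 and 155 TPM. Between the libraries the median centred ratio was 0.08 for the 48 genes and 0.08 for the replication genes, of which 2 were over 1.5-fold higher and 2 over 1.5-fold lower in replicate 2.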

How the data were processed

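The deposited tables hold, per the file headers, the following per gene and per transcript: an expected count, which estimates reads or fragments and is not normalized; TPM and its posterior mean; and bounds of a TPM interval. For transcripts they add, per the file headers, the percent of the gene's TPM. The authors' deposited TPM values are scaled to a fixed sum over all 69691 rows of a gene table. They used build mm10 and GENCODE M4, per the text files deposited beside the tables. What program made the values is not given in the labels or headers used here, and no replicates were pooled. Symbols, coordinates and transcript classes came from GENCODE M21 by gene ID without version (42462 of 43346 Ensembl gene rows matched).

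Levels are the TPM of both libraries. Between libraries, log2((TPM + 1) in replicate 2 over replicate 1) was centred on the median of nuclear protein-coding genes averaging 1 TPM or more, so the changes of low genes are understated. Alternatives used a pseudocount of 0.1, posterior means, rescaled TPM, and expected counts rounded to whole numbers and scaled with edgeR (TMM) or DESeq2 size factors, over genes with 10 or more counts in each library. No model was fitted, since there is 1 group. Replicate numbers name the libraries and pair nothing.

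Promoters were RefSeq's (GRCm38.p6, the assembly of mm10), searched on both strands. The ratio step was tested on simulated counts with known folds and counting error only. That simulation held no transcript lengths, GC effect or further spread between libraries, so it cannot show how these move the ratios. The members and lists were chosen with earlier results of these data known. Every member is named, and other genes only where a listed pair, a list's highest or lowest gene, or a marker needs them; Mybl2, Pcna and genes overlapping members were named after their values were seen. Tools were Python 3.11.15 with matplotlib 3.10.9, pandas 2.3.3 and numpy 2.4.6, and R 4.3.3 with DESeq2 1.42.0 and edgeR 4.0.16.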

Additional observations from a re-analysis of the deposited data

How the results depend on the processing

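The count of 48 genes at a TPM of 1 was the same under posterior means, rescaled TPM, each library alone and a threshold of 10 counts, and was 47 over coding transcripts. The median level was 73.3 TPM after rescaling to the non-globin part of nuclear coding genes and 15.3 TPM over coding transcripts, both set by construction, and each library alone gave 15.9 to 17.3 TPM. The median shift of 0.08 between the libraries was 0.08 to 0.12 under another pseudocount, posterior means, rescaling, TMM, DESeq2 size factors, coding transcripts and a background of at least 10 TPM. Both without centring and with no filter on the background, where the median gene of all is at 0, the median shift was reversed at -0.19, with 13 genes above 0 and 1 past 1.5-fold. Within GC deciles the shift was 0.17 on TPM and 0.20 on TMM-scaled counts. There 36 and 40 of the 48 genes lay above the median gene, against 50% of genes compared on TPM. The count past 1.5-fold was 2 within GC deciles on TPM, where the cause was not tested, and 3 over coding transcripts. Over coding transcripts Cdc25b, Plk1 and Espl1 no longer passed, with Plk1 and Espl1 both at 0.58, just under 1.5-fold. The median of all genes compared was -0.26 there and -0.27 on gene TPM. Cdc25b reversed, to -0.35 by TMM and by DESeq2, -0.51 by TMM within GC deciles and -0.57 over coding transcripts. Pairs with the first gene higher numbered 15 to 16 with either library left out and 14 over coding transcripts.

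No paired analysis was possible because there is 1 group. Leaving a library out gives no shift between libraries. A planned search for KEN letters in the proteins was not run. GC centring and coding transcripts were added after the data were seen. With 2 libraries, the spread is known from 1 difference per gene.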
